A study of Mus musculus with 22 samples.

Results

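The forkhead (Fox) and Sox families encode transcription factors, and 35 of their genes were followed here, 24 forkhead genes and 11 Sox genes, leaving out the Foxp genes and the SoxD genes. They were chosen by name, and every row of the deposited peak table assigned to one of these names was used. Of the 35 genes, 28 had at least 1 row (20 Fox and 8 Sox), and together they held 34 of the 19034 peaks (24 Fox and 10 Sox). No row carried the names Foxd2, Foxl1, Foxn4, Foxs1, Sox1, Sox9 or Sox11. The peaks were tested singly and as a sum per gene, of 12370 gene names in all.

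The mark measured was trimethylation of histone H3 at lysine 27 (H3K27me3), profiled with CUT&RUN, in which an antibody guides a nuclease that frees nearby DNA for sequencing. Tissue came from C57BL/6 mouse embryos of day 18.5, and both retinas of 1 animal made 1 sample. The 5 animals called cKO carried Jarid2 fl/fl; Rx-cre, a conditional deletion of Jarid2 that acts where Rx is expressed, in retinal progenitors. The 5 controls differed in genotype: 3 were Jarid2 fl/+ without Cre, 1 was Jarid2 fl/fl without Cre (control 3), and 1 was Jarid2 fl/+; Rx-cre (control 1). Tamoxifen, 75 µg per g of body weight, was given to the pregnant dams of all groups at E10.5. The protocol text names the driver Rax-CreERT2 and gives all controls as fl/fl, so the labels and the protocol differ on the controls. Batch 1 was a single litter with 2 animals of each group and both sexes, and batch 2 held 3 male littermates of each group.

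Polycomb repressive complex 2 (PRC2) writes H3K27me3, and JARID2 is one of its accessory subunits, with a known part in bringing the complex to CG-rich DNA. Forkhead proteins bind DNA through a winged-helix domain and Sox proteins through an HMG box. Many of these genes direct the formation of other organs, and such genes are known to lie under broad H3K27me3 domains in tissues that do not use them. Others act in the eye itself: Foxn4 in progenitors that give rise to amacrine and horizontal cells, Sox4 and Sox11 in retinal ganglion cells, Sox8 and Sox9 in Müller glia and progenitors, Foxe3 in the lens, and Foxc1 in the anterior segment.

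Because PRC2 is known to be drawn to CG-rich promoters, the promoter letters of 6 members are shown, each the 250 bases before the start site on the minus strand of GRCm38.p6 (RefSeq), 5′ to 3′, with every CG in capitals. Foxb2 (chr19:16873831-16874080) holds the only called peak, Foxe3 (chr4:114926068-114926317) and Sox21 (chr14:118237031-118237280) lie under wide domains, and Foxn4 (chr5:114273762-114274011), Sox11 (chr12:27342719-27342968) and Sox4 (chr13:28953700-28953949) are retinal genes with no peak over the gene.
Foxb2: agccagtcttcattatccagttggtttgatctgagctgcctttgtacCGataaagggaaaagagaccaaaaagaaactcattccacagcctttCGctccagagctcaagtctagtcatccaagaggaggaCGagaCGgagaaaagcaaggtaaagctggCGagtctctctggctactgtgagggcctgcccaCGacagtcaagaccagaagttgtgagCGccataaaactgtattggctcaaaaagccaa
Foxe3: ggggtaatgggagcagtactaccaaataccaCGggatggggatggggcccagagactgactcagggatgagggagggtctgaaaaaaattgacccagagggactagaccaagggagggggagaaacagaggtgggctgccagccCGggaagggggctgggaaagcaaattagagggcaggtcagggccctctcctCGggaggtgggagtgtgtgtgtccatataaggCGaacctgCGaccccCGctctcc
Sox21: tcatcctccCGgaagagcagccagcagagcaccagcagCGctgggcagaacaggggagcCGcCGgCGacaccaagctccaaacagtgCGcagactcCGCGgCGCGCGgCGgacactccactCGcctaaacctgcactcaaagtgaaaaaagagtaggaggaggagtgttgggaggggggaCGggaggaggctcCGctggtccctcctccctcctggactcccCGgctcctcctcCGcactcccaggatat
Foxn4: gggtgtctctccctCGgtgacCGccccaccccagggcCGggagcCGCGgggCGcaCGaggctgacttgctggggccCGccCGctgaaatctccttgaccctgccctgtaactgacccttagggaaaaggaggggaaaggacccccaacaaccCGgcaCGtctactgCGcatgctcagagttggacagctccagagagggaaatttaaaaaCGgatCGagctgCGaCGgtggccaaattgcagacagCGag
Sox11: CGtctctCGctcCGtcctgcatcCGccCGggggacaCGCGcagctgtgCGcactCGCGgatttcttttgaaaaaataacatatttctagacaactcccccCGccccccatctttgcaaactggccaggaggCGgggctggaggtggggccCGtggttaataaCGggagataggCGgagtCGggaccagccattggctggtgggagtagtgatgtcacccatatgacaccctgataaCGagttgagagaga
Sox4: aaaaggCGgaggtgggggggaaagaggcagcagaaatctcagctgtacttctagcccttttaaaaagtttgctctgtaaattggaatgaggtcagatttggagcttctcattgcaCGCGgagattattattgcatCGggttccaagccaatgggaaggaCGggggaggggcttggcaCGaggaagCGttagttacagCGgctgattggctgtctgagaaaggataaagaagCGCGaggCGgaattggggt

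These stretches hold 7 CG in Foxb2, 6 in Foxe3, 17 in Sox21, 17 in Foxn4, 17 in Sox11 and 11 in Sox4. The promoters of Foxn4 and Sox11, with no peak over the gene, thus hold as many CG as that of Sox21, whose domain spans 34.3 kb. Over the full 300-base promoters in the RefSeq table (250 bases before to 50 after the start), 21 members matched with 23 promoters. Medians are over genes, with the mean of its promoters for a gene that has several. The median CG number was 22 over the 21 members, against 7 over all 27025 genes of the table, and the median GC content was 65.7% against 52.8%. The 15 Fox genes had a median of 25 CG and the 6 Sox genes 21.5. The 11 matched members whose summed peaks were wider than 20 kb had a median of 25 CG and the 6 with narrower peaks 21.5. Foxb1, Foxc2, Foxe1, Foxf1, Foxq1, Sox7 and Sox17, also wider than 20 kb, had no matched promoter. Of the members with no assigned peak, Foxn4 held 22 CG and Sox11 21, and Foxd2 and Sox1, which lie inside peaks assigned to neighbours, held 26 and 37. The letters CCGCCG, searched on both strands, stood in 10 of 23 member promoters (43.5%) and in 18.7% of all promoters. Which factor binds any of these letters was not measured.

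Each animal had 1688368 to 2864080 reads in peaks. The 34 member peaks took 1.47% to 1.83% of these reads in controls (median 1.65%) and 1.57% to 1.75% in cKO (median 1.65%). Across controls 1 to 5 the share declined in order (1.83%, 1.70%, 1.65%, 1.57% and 1.47%). The control values of Foxa2, Foxb2, Foxc1, Foxe3, Sox17 and Sox21, given below, declined in the same order. The control ranges of these genes are thus not independent of each other. Values are given as CPM, the count of a peak or gene scaled to the TMM-adjusted library size (edgeR's cpm). They are given as mean ± SD over 5 animals unless stated, and log2 fold changes (cKO over control) with a standard error (SE). Genes and peaks were scaled and fitted separately, so a gene with a single peak differs slightly between both fits. Where a member with a single assigned peak is given by animal, its CPM, mean and log2 fold change are from the gene fit. A gene or peak is said to be called, and to have fallen or risen, at an adjusted p under 0.05 in the edgeR quasi-likelihood test with batch as a term. Of 11324 genes tested, 939 (8.29%) were lower and 168 (1.48%) higher in cKO, so 84.8% of calls were lower. Scaled to the total count instead of TMM, the numbers were 758 and 467 (61.9% lower), and DESeq2 gave 707 and 26. In bulk tissue, a change of the mark in a few cells and a smaller one in many cells cannot be told apart.

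In control retinas, most of the members lay under wide, dense H3K27me3 domains. The median member gene had 25.5 kb of summed peak, against 4.34 kb over all 12370 gene names, tested or not. Fox genes had a median of 28.8 kb and Sox genes of 16.3 kb. Per kilobase of peak, the median control level was 25.6 CPM for Fox genes and 23.2 CPM for Sox genes, against 5.78 CPM over all gene names. Of the 34 peaks, 25 covered a start site, 26 were annotated as promoter, 6 as intergenic and 2 as intronic. 18 of them (14 Fox and 4 Sox) were wider than 20 kb, a size that only 459 of all peaks (2.41%) reached. These 18 carried 17.7 to 36.1 CPM per kb and all lay at or above the 93.7th percentile of peak density.

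**Figure D1:**
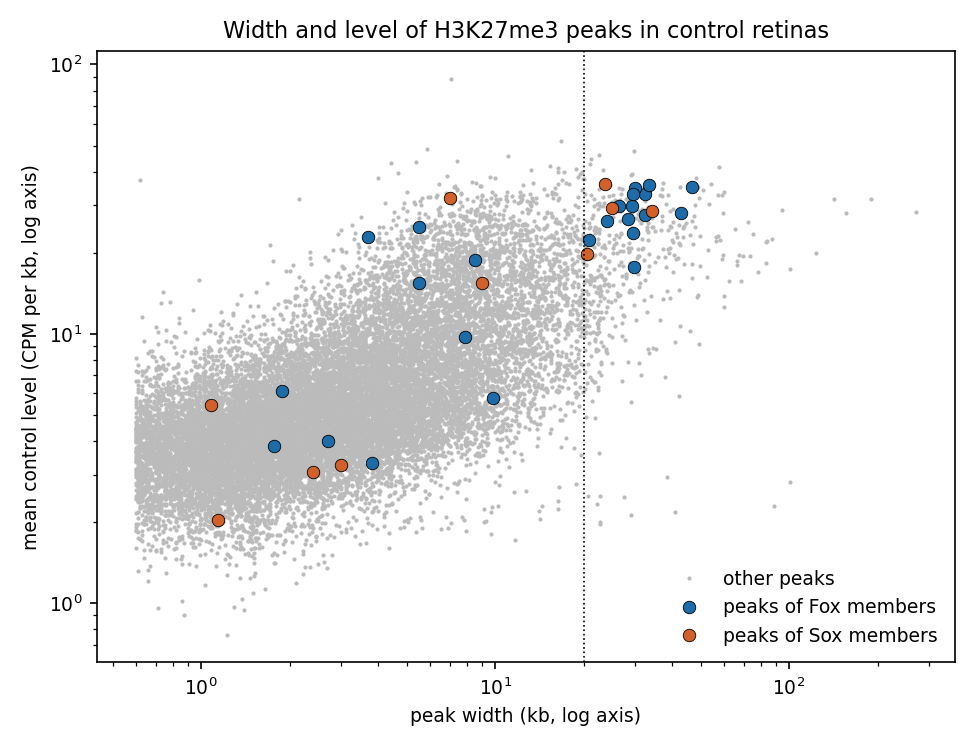
Peak width in kb against mean control level in CPM per kb, both on log axes, with 1 point per peak, Fox member peaks in blue, Sox member peaks in orange and other peaks in grey. 18 member peaks lie right of the dotted line at 20 kb, between 17.7 and 36.1 CPM per kb, where the median of all peaks is 5.13.

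Summed per gene, the mark showed no called change in cKO retinas at any tested member. Of the 27 members with enough reads to test (20 Fox and 7 Sox), 0 were lower and 0 higher in cKO by edgeR, beside the 8.29% lower and 1.48% higher of all genes tested. At an unadjusted p under 0.05 there were 2, Sox4 on the lower side and Foxj1 on the higher, beside 23.0% of all genes tested, and DESeq2 called 0 with 0 at an unadjusted p under 0.05. For 24 of the 27, the 95% interval of the change lay within a 1.25-fold rise and a 1.25-fold fall; the exceptions were Foxj1, Foxn1 and Sox4, which are the 3 tested members with fewest reads. The sign of the log2 fold change was negative for 21 members and positive for 6, beside 46.8% negative over all genes tested. With the total count as scaling it was negative for 7 and positive for 20, so the sign depends on the scaling. That scaling also moved the median of all genes tested, from 0.015 to 0.072. The Fox and Sox medians lay below it under both scalings (-0.038 and -0.029, then 0.021 and 0.030). In batch 2 alone, however, the Fox median lay above that of all genes (0.036 against 0.014).

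**Figure D2:**
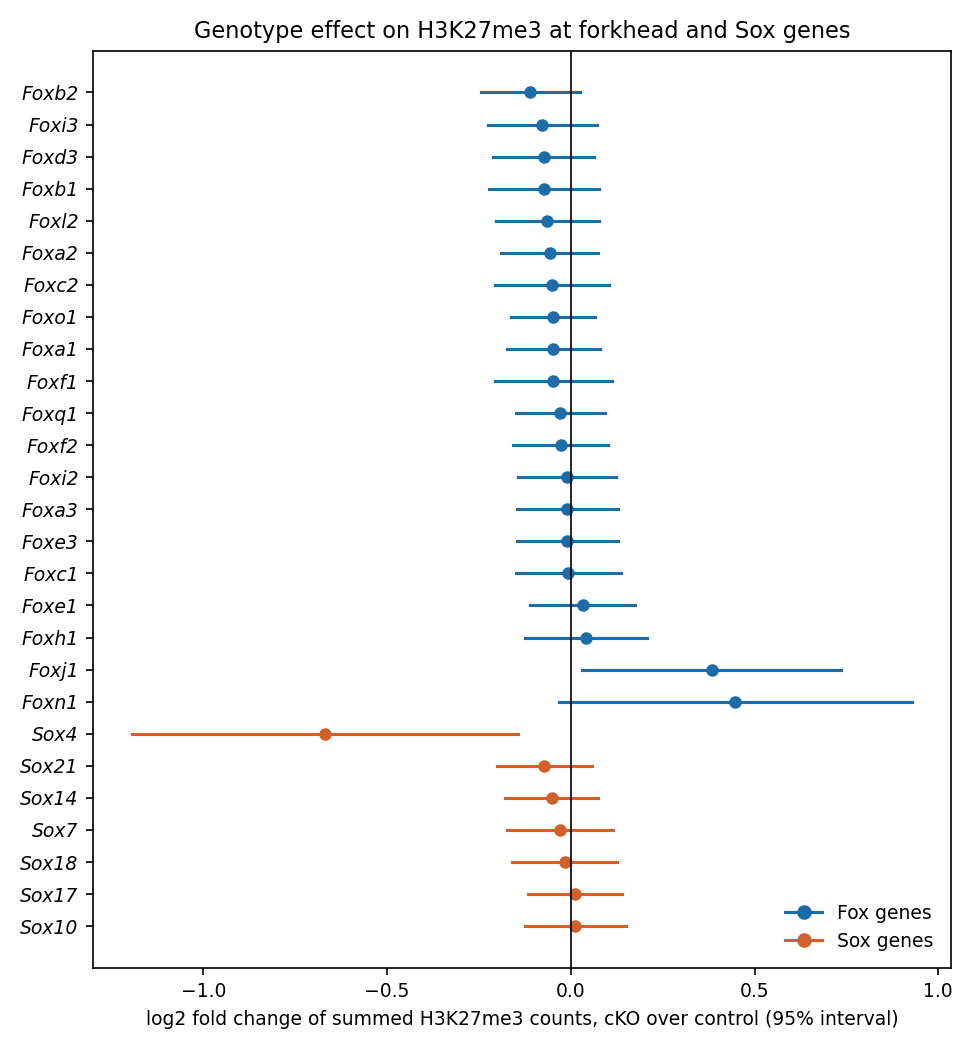
Log2 fold change of the summed H3K27me3 counts of each of the 27 tested members, cKO over control, with its 95% interval from edgeR, Fox genes in blue and Sox genes in orange. Apart from Sox4 (-0.67), Foxj1 (0.38) and Foxn1 (0.45), the points lie between -0.11 and 0.041.

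Among the FoxA genes, which open chromatin for endoderm and floor plate development, Foxa2 carried the most mark of any member. Its 46.9 kb peak (chr2:148013880-148060820, mm10) held 1875, 1766, 1666, 1578 and 1385 CPM in controls 1 to 5 and 1640.4, 1693, 1565, 1563 and 1465 CPM in cKO 1 to 5. All 5 cKO values fell inside the control range. The means were 1654 ± 187 and 1585 ± 87 CPM, a log2 fold change of -0.058 ± 0.063 (edgeR adjusted p = 0.642; two-sided exact permutation within batches p = 0.35). Foxa1 had 1193 ± 144 CPM in the control group and 1151 ± 74 CPM in cKO, and Foxa3, with a 5.49 kb peak, 137 ± 10 and 136 ± 7.9 CPM.

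Foxb1 and Foxb2 are forkhead genes of the embryonic nervous system. Foxb2, summed over 2 peaks, held 1135, 1086, 1078, 988 and 867 CPM in controls against 931, 1007, 974, 931 and 922 CPM in cKO. The control range covered every cKO value. On the log2 scale, 4 of 5 cKO animals were below the control mean of their batch, and cKO 3 lay close to it. The sums gave 1031 ± 106 and 953 ± 36 CPM, a log2 fold change of -0.11 ± 0.064 (edgeR adjusted p = 0.328; two-sided exact permutation p = 0.133). Without control 5, the lowest control, Foxb2 was called lower (log2 fold change -0.16, edgeR adjusted p = 0.0341). Foxb1 had 878 ± 126 CPM in the control group and 831 ± 66 CPM in cKO.

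The 2 Foxb2 peaks did not have the same values. Over the gene itself, the 29.4 kb peak (chr19:16859490-16888900) held 970 ± 121 CPM in controls against 912 ± 47 CPM in cKO, a log2 fold change of -0.085 ± 0.071 (edgeR adjusted p = 0.545). The second peak (chr19:16890500-16900350, 9.85 kb) begins 16.7 kb before the start site and is annotated as intronic. It had 45.9, 56.2, 60.7, 58.0 and 64.2 CPM in the control group and 34.4, 44.2, 55.0, 47.3 and 47.1 CPM in cKO. The groups overlapped, yet each cKO animal was below the control mean of its batch. Its level fell from 57.0 ± 6.9 to 45.6 ± 7.4 CPM, a log2 fold change of -0.31 ± 0.092 (edgeR adjusted p = 0.0356). It was the only member peak called, 1 of 33 tested lower and 0 higher, beside 8.84% called over all 16307 peaks tested (7.38% lower and 1.46% higher), with 3 of the 33 at an unadjusted p under 0.05. The call was lost with DESeq2 (adjusted p = 0.185) and with the total count (edgeR adjusted p = 0.0827). It was also lost without control 2 (edgeR adjusted p = 0.0872), control 3 (0.0641), control 5 (0.0537), cKO 1 (0.099), cKO 4 (0.0926) or cKO 5 (0.0873). The difference between the 2 peaks of Foxb2 was not tested, and reads in the outer peak came to 6.02% ± 1.45 of those in the gene peak in controls and 5.01% ± 0.89 in cKO.

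Foxc1 and Foxc2 act in mesenchyme and vessels, and Foxc1 is needed for the anterior segment of the eye. The single Foxc1 peak (chr13:31796670-31825070, 28.4 kb) held 924, 912, 714, 691 and 564 CPM in controls against 806, 855, 694, 682 and 712 CPM in cKO. The 2 batch 1 animals of each group were above the batch 2 animals of that group. The means were 761 ± 154 and 750.0 ± 76 CPM, a log2 fold change of -0.0077 ± 0.068 (edgeR adjusted p = 0.967; two-sided exact permutation p = 0.983). Foxc2 had 633 ± 99 CPM in the control group and 607 ± 39 CPM in cKO.

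Foxe3, a gene of the lens vesicle, had 3 peaks and Foxe1, a thyroid gene, had 1. Summed, Foxe3 held 1442, 1314, 1231, 1157 and 1005 CPM in controls against 1287, 1313, 1208, 1199.5 and 1082 CPM in cKO. Every cKO value lay inside the control range. The means were 1229.9 ± 164 and 1218 ± 90.3 CPM, with a log2 fold change of -0.0098 ± 0.065 (edgeR adjusted p = 0.954; two-sided exact permutation p = 0.917). Nearly all of these reads came from a 43.0 kb peak (chr4:114888940-114931910), at 1202 ± 177 CPM in controls and 1199 ± 107 CPM in cKO. The 2 intergenic Foxe3 peaks held 10.8 ± 1.2 and 12.6 ± 1.8 CPM in controls, and 11.8 ± 2.3 and 14.5 ± 2.4 CPM in cKO. Foxe1 had 702 ± 112 CPM in the control group and 713 ± 44 CPM in cKO.

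The remaining forkhead genes with wide domains serve other tissues: Foxd3 in neural crest, Foxf1 and Foxf2 in gut and lung mesenchyme, Foxl2 in the ovary and Foxq1 in hair and stomach, with Foxi2 of the FoxI group beside them. In controls they ranged from 466 CPM at Foxq1 to 1051 CPM at Foxf2 and 1067 CPM at Foxl2. Their log2 fold changes ran from -0.074 ± 0.066 at Foxd3 to -0.010 ± 0.064 at Foxi2, none called by edgeR. Narrower peaks covered Foxo1, a target of insulin signalling (238 ± 16 CPM in controls, 229.6 ± 7.5 in cKO), Foxi3, an ectodermal gene (85.3 ± 9.5 and 80.8 ± 4.8), and Foxh1, a partner of SMAD proteins (84.5 ± 8.4 and 86.7 ± 7.8). At Foxi3 each of the 5 cKO animals was below the control mean of its batch, with a log2 fold change of -0.078 ± 0.071 (edgeR adjusted p = 0.568).

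Foxj1, the regulator of motile cilia, and Foxn1, the thymus gene, had few reads (285 and 172 over all animals). At Foxj1, described after its values were seen, controls 1 to 5 held 15.6, 14.5, 9.75, 7.82 and 10.1 CPM, and cKO 1 to 5 held 20.2, 19.98, 7.57, 15.6 and 12.8 CPM. The groups overlapped and cKO 3 was the lowest of all. The log2 fold change was 0.38 ± 0.17 (edgeR adjusted p = 0.174), and without cKO 3 it was 0.52 and called (edgeR adjusted p = 0.0473). Foxn1 held 6.81 ± 2.4 CPM in controls against 9.01 ± 2.3 CPM in cKO, a log2 fold change of 0.45 ± 0.23 (edgeR adjusted p = 0.256).

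**Figure D3:**
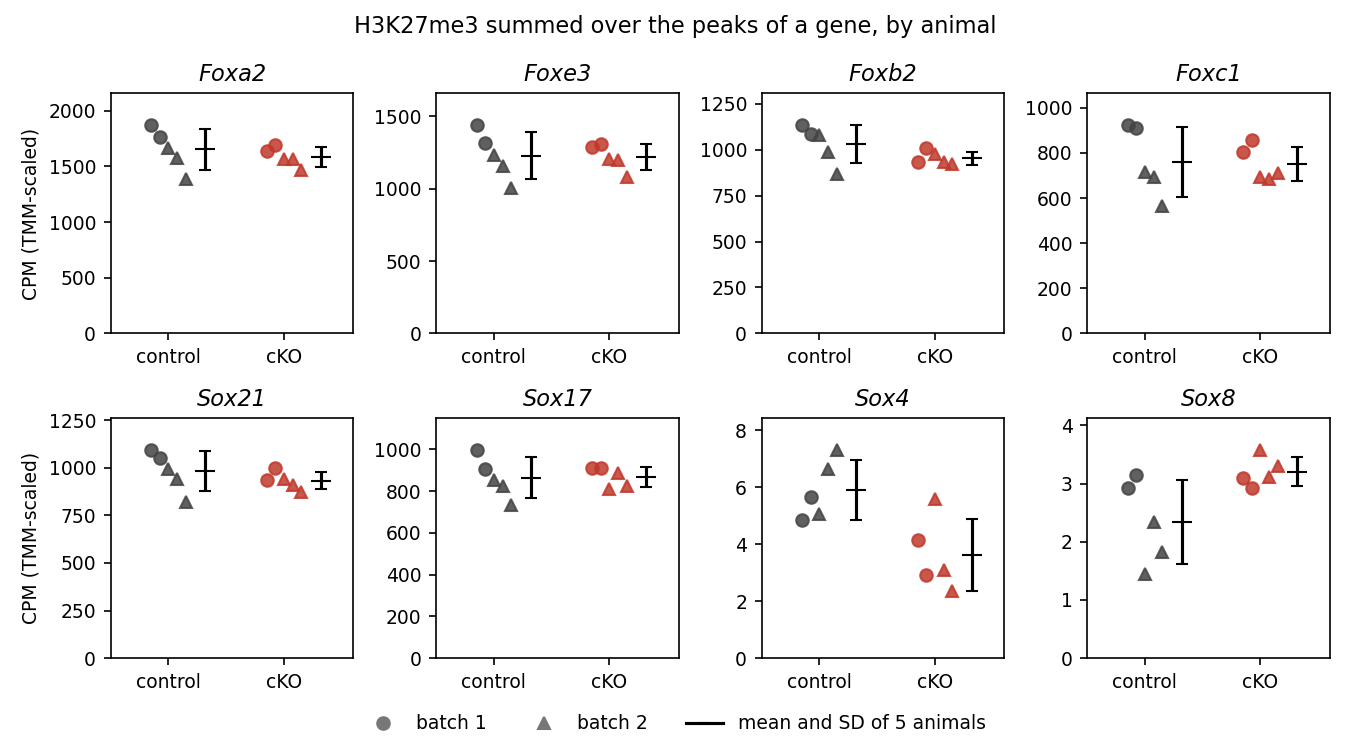
H3K27me3 in CPM, summed over the peaks of a gene, for each animal of both groups (circles batch 1, triangles batch 2), with the mean and SD of 5 animals as black bars, for 4 Fox and 4 Sox genes. Foxa2, Foxe3, Foxb2, Foxc1, Sox21 and Sox17 overlap fully between groups, while 4 of 5 cKO values for Sox4 lie below the lowest control value of 4.87 CPM.

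In the Sox family the SoxB genes Sox14 and Sox21, which act in neural progenitors and neurons, had wide domains. Sox21 (chr14:118208030-118242290, 34.3 kb) had 1096, 1049.5, 996, 943 and 823 CPM in the control group and 937, 996, 944, 907 and 874 CPM in cKO. The cKO values lay within the control range, and 4 of 5 were below the control mean of their batch. The means were 981 ± 106 and 932 ± 46 CPM, a log2 fold change of -0.072 ± 0.062 (edgeR adjusted p = 0.543; two-sided exact permutation p = 0.317). Sox14 held 736 ± 78 CPM in controls against 708 ± 53 CPM in cKO.

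The SoxF genes Sox7, Sox17 and Sox18 direct endothelial and, for Sox17, endodermal development. Sox17, over 2 peaks, had 998, 907, 851, 826 and 733 CPM in the control group and 909, 909, 809.8, 887 and 824 CPM in cKO. No cKO value left the control range. The means were 863 ± 98 and 868 ± 47 CPM, a log2 fold change of 0.011 ± 0.060 (edgeR adjusted p = 0.944; two-sided exact permutation p = 0.817). Sox7 held 419 ± 48 CPM in controls against 410.2 ± 13 CPM in cKO, and Sox18, under a 7.01 kb peak, 224 ± 22 and 222 ± 25 CPM. Sox10, a SoxE gene of neural crest and its glia, held 140.3 ± 16 and 141 ± 9.8 CPM.

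Sox4 and Sox8 carried little mark. The single Sox4 peak (chr13:28959780-28960860, 1.08 kb) is intergenic, 6.07 kb before the start site, and held 106 reads over all animals. Controls 1 to 5 had 4.87, 5.66, 5.06, 6.64 and 7.33 CPM, from 10, 9, 14, 17 and 16 reads. In cKO 1 to 5 the peak had 4.13, 2.92, 5.58, 3.11 and 2.36 CPM, from 8, 6, 14, 7 and 5 reads. Only cKO 3 reached into the control range, and all 5 cKO animals were below the control mean of their batch. The log2 fold change of -0.67 ± 0.25 was not called (edgeR adjusted p = 0.116); the two-sided exact permutation within batches gave p = 0.0333, where 0.0167 is the smallest that its 120 arrangements allow. Permutation was run for 8 members (Foxa2, Foxb2, Foxc1, Foxe3, Sox4, Sox8, Sox17 and Sox21), and its p-values were not adjusted. For Sox8, the only peak (chr17:25570230-25571370, promoter, 60 reads) was too low for the edgeR filter. It had 2.92, 3.15, 1.44, 2.34 and 1.83 CPM in the control group and 3.10, 2.92, 3.58, 3.11 and 3.31 CPM in cKO, and the groups overlapped. Its two-sided exact permutation p was 0.0667, and without the filter its log2 fold change was 0.49 (edgeR adjusted p = 0.484).

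Of the 7 members without a row, 3 in fact lay inside a peak assigned to a neighbour, by RefSeq gene positions on GRCm38.p6, the assembly of mm10. Foxd2 lies in the 43.0 kb peak assigned to Foxe3, so that domain holds both genes and its reads cannot be split between them. Foxl1 lies in the 24.1 kb Foxc2 peak. Sox1, a gene of neural progenitors, lies in a 49.8 kb peak (chr8:12370470-12420300) assigned to its overlapping transcript Sox1ot. That peak held 1335, 1245, 1188, 1079 and 916 CPM in controls against 1100.3, 1149, 1112, 1034 and 923 CPM in cKO. All cKO values fell in the control range, with a log2 fold change of -0.11 ± 0.076 (edgeR adjusted p = 0.441).

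Sox9 and Foxs1 lie just beside peaks of other genes. A 4.38 kb peak 530 bp from Sox9 (chr11:112777300-112781680), assigned to BC006965, had 35.1, 38.7, 24.4, 31.5 and 26.5 CPM in the control group and 22.7, 26.3, 28.3, 18.6 and 21.9 CPM in cKO. The groups overlapped through controls 3 and 5. The log2 fold change was -0.38 ± 0.12 and missed the threshold (edgeR adjusted p = 0.0653). A 29.6 kb peak 532 bp from Foxs1, assigned to Dusp15, held 379 ± 29 CPM in controls against 400.5 ± 12 CPM in cKO. Foxn4 and Sox11 had no peak near the gene: the nearest lay 78.8 kb from Foxn4 and 717 kb from Sox11. When peaks were assigned by RefSeq gene bodies with 2.5 kb on either side, 31 members could be tested, Sox4 not among them. Foxd2 and Foxe3 shared the same count there, as did Foxc2 and Foxl1. Of the 31, edgeR called 0, with 3 at an unadjusted p under 0.05 (Sox9, Foxj1 and Sox1).

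Called changes did occur beside some of these domains. Within 100 kb of a member gene, a window set after the data were seen, there were 161 peaks, of which 141 were tested; 9 were lower (6.38%) and 1 higher (0.709%) by edgeR. Those shares are near the 7.38% and 1.46% of all peaks tested, and read against them this window holds no larger share of called peaks. The 141 include peaks over the members themselves, and the share among the flanking peaks alone was not counted. The 9 lower peaks included the outer Foxb2 peak, 2 beside Foxb1, 3 beside Foxd3, 2 beside Sox1 and 1 beside Sox21. Apart from the outer Foxb2 peak, none of these peaks is assigned to a member.

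Beside Foxb1, peaks 65.3 and 73.2 kb from the gene fell from 81.3 ± 16 to 53.3 ± 13 CPM and from 122 ± 42 to 75.9 ± 34 CPM, with log2 fold changes of -0.60 ± 0.093 and -0.70 ± 0.084 (edgeR adjusted p = 0.000161 and 1.68e-05). Both calls were lost without a batch term (edgeR adjusted p = 0.0636 and 0.218). Set against the reads of the Foxb1 domain in the same animal, a measure free of scaling, the farther peak held 7.34%, 8.42%, 18.8%, 17.9% and 20.2% in controls and 4.26%, 4.55%, 12.8%, 12.4% and 12.6% in cKO. Within each batch the cKO ratios were all below the controls, and batch 2 was above batch 1 in both groups.

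Beside Foxd3, peaks 26.9, 50.9 and 61.4 kb away fell with log2 fold changes of -0.38 ± 0.068, -0.37 ± 0.082 and -0.33 ± 0.067 (edgeR adjusted p = 0.000638, 0.00459 and 0.00247), while the Foxd3 peak itself had -0.060 ± 0.071. Without a batch term the middle peak was not called (edgeR adjusted p = 0.105). The nearest of the 3 went from 184 ± 9.9 to 142 ± 11 CPM. Its reads came to 20.9% ± 2.9 of the Foxd3 domain in controls and 16.6% ± 1.5 in cKO, and the groups overlapped.

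Beside Sox1, a peak 22.6 kb away fell from 228 ± 22 to 177 ± 9.3 CPM, a log2 fold change of -0.36 ± 0.063 (edgeR adjusted p = 0.000597). Its reads came to 17.1%, 20.9%, 19.5%, 20.2% and 22.0% of those in the Sox1 domain in controls and 16.8%, 16.5%, 15.6%, 16.6% and 18.2% in cKO. Control 1 and cKO 5 made the groups overlap, and each cKO animal was below the control mean of its batch. A 62.5 kb peak 44.1 kb from Sox1 fell by less (log2 fold change -0.21 ± 0.064, edgeR adjusted p = 0.0468), and its call held in 6 of 19 other settings. The peak 78.8 kb from Sox21 had -0.24 ± 0.065 (edgeR adjusted p = 0.0215), called in 11 of 19. The single higher peak, 86.5 kb from Sox10, had 0.22 ± 0.067 (edgeR adjusted p = 0.0437) and was called in 4 of 19. No difference between a flanking peak and its domain was tested, and these peaks were picked for having been called.

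**Figure D4:**
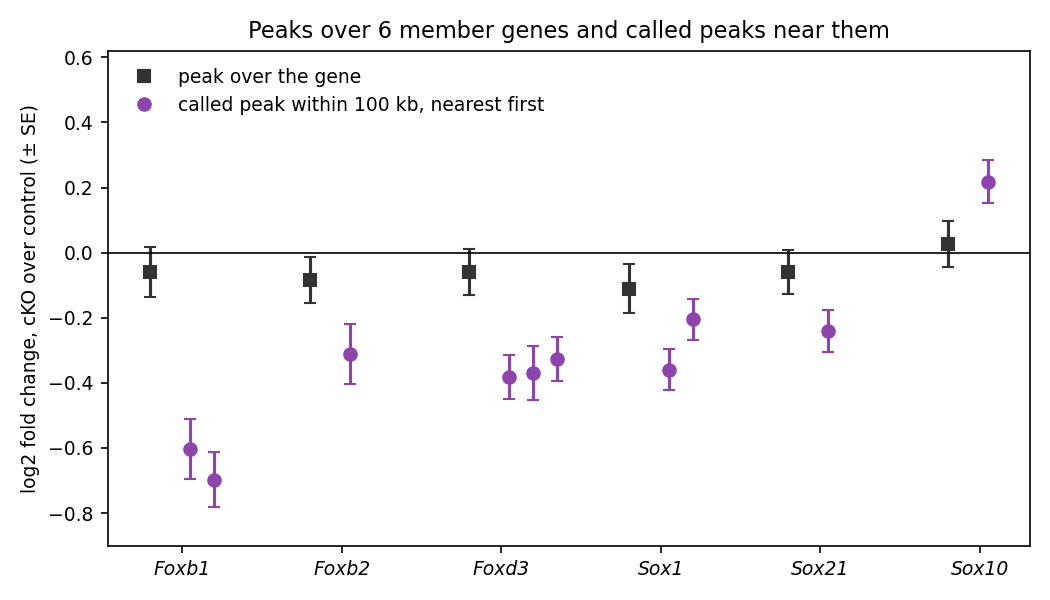
Log2 fold change with its SE for the peak over each of 6 member genes (black squares) and for the called peaks within 100 kb of it (purple circles, nearest first). The squares lie between -0.11 and 0.025, whereas the circles were chosen for being called and reach -0.70 beside Foxb1.

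The 18 member peaks wider than 20 kb had log2 fold changes of -0.085 to 0.045, and their 95% intervals ran from -0.23 to 0.20. Of all 459 peaks of that width, edgeR called 70 lower (15.3%) and 2 higher, with a median of -0.034. Of these 18 none was called, so this width class had a higher share of lower calls overall than the members showed. The difference in share was not tested.

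The Fox and the Sox genes had near-equal medians. The median log2 fold change was -0.038 over 20 Fox genes and -0.029 over 7 Sox genes, beside 0.015 over all genes tested, where the middle 50% ran from -0.12 to 0.14. Across settings, the Fox median minus the Sox median ranged from -0.036 (batch 1 alone) to 0.055 (batch 2 alone). Both medians changed sign with the total count as scaling, to 0.021 and 0.030, with 0.072 for all genes. Fox genes ranged from -0.11 at Foxb2 to 0.45 at Foxn1, and Sox genes from -0.67 at Sox4 to 0.012 at Sox10. No test of the families against each other was made, since the genes were chosen with results known.

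**Figure D5:**
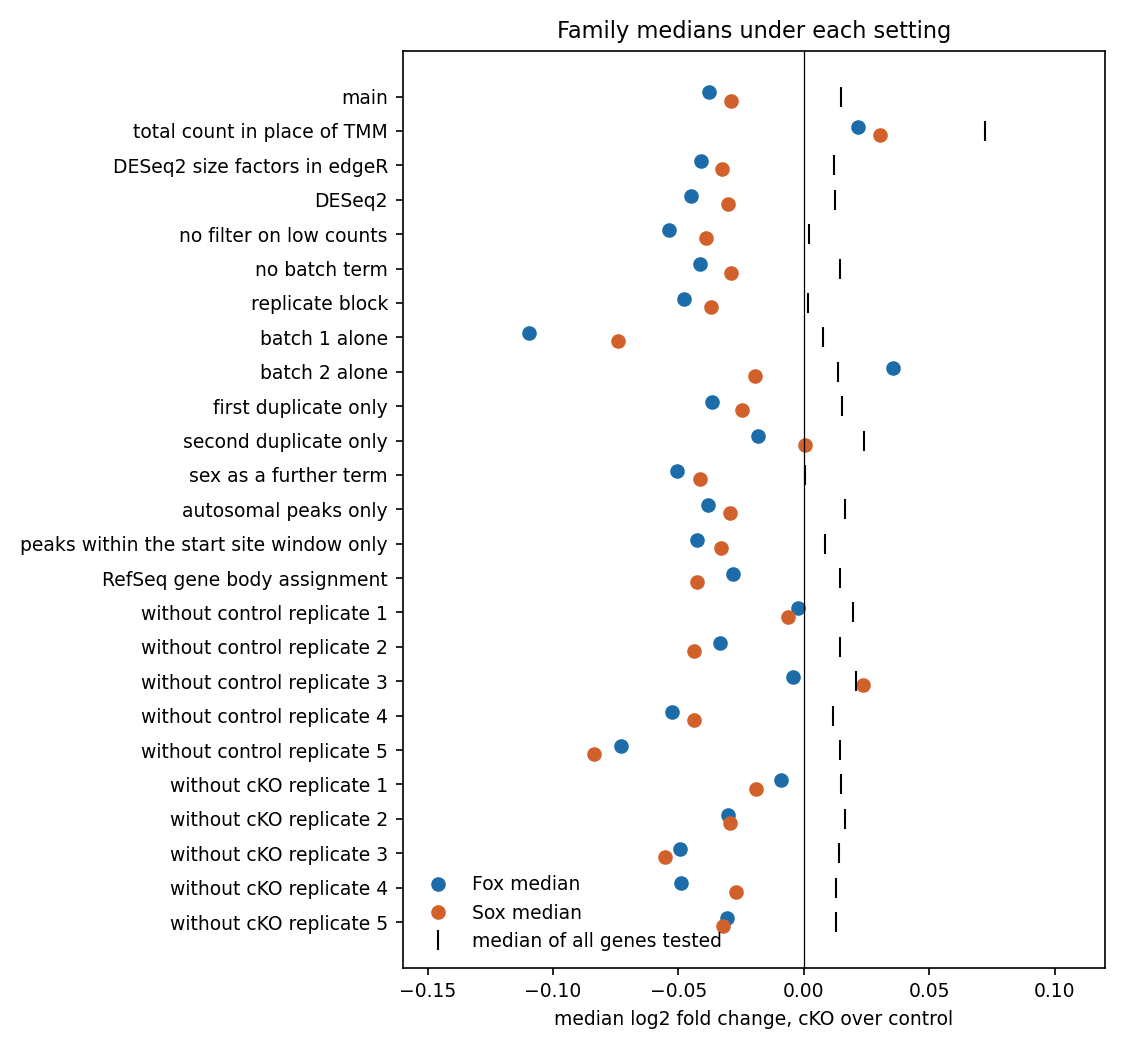
Median log2 fold change of the Fox genes (blue), the Sox genes (orange) and all genes tested (black ticks), cKO over control, under the analysis used and 24 other settings. The family medians stay between -0.11 and 0.036 and lie on both sides of 0.

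More of these genes were called between the batches than between the genotypes, as was so over all genes tested (1482 against 1107 by edgeR). Of the 27 tested members, 25 had a negative sign (batch 2 over batch 1), a share that was not counted over all genes. By edgeR, 7 members were lower in batch 2 than in batch 1 and 0 higher, beside 13.1% of all genes called in either direction. Foxc1 had the lowest adjusted p of these, a log2 difference of -0.37 (edgeR adjusted p = 0.00141). In batch 1 alone the genotype medians were -0.11 for Fox and -0.074 for Sox, and in batch 2 alone 0.036 and -0.019. A genotype by batch term was called for 0 of 27 members, with 0 at an unadjusted p under 0.05, beside 0.0177% called and 4.45% at an unadjusted p under 0.05 over all genes tested. Litter and batch cannot be told apart here, while sex varied within batch 1, and with sex as a further term edgeR called 0 members, with 3 at an unadjusted p under 0.05.

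Other genes of the families and their partners, on lists drawn up with earlier results of these data known, gave these values. Of 20 other forkhead genes, 7 were tested and 2 fell: Foxp1, from 424 ± 125 to 237 ± 116 CPM (log2 fold change -0.92 ± 0.11), and Foxp2, from 185 ± 18 to 138 ± 18 CPM (-0.42 ± 0.082). Foxd1, a gene of the temporal retina, had -0.12 ± 0.061 and was not called. Of 9 other Sox genes, 5 were tested, 2 fell, Sox5 (-0.29 ± 0.057) and Sox6 (-0.48 ± 0.070), and 1 rose, Sox30 (0.27 ± 0.081). The rise of Sox30 was not called by DESeq2, which made 2 lower calls in each of these lists.

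Of 10 genes in the Foxn4 pathway of amacrine and horizontal cell formation, 9 were tested and 1 fell, Atoh7, the ganglion cell competence factor, from 166 ± 44 to 98.8 ± 35 CPM, a log2 fold change of -0.77 ± 0.087 with an adjusted p of 2.65e-05 in edgeR. Ptf1a, a target of Foxn4, went from 908 ± 73 to 886 ± 50 CPM and was not called. Of the genes that work with Sox4 and Sox11 in ganglion cells, 3 of 4 were tested (Isl1, Pou4f1 and Pou4f2) and 0 called by edgeR or DESeq2, with log2 fold changes of -0.077 to -0.047 and 0 at an unadjusted p under 0.05. Of 8 genes that work with Sox8 and Sox9 in glia, 3 were tested and 0 called by either tool, with 2 at an unadjusted p under 0.05 in edgeR, Hes1 (-0.45 ± 0.20) and Nfia (-0.14 ± 0.060).

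H3K27me3 does not measure RNA, so the marker genes of other eye tissues describe the mark and cannot check the dissection. Among pigment epithelium markers, 2 of 5 were tested and 1 fell, Mitf (-0.19 ± 0.053, edgeR adjusted p = 0.028), a call that DESeq2 did not make. For mesenchyme and neural crest (5 of 5 tested), endothelium (2 of 5), lens (2 of 5) and microglia (2 of 4), edgeR and DESeq2 called 0. Of these, only Col1a1 (0.19 ± 0.074) had an unadjusted p under 0.05 in edgeR. Their part in the values of the members was not tested.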

How the data were processed

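H3K27me3 CUT&RUN libraries of 10 animals were used (16 libraries), without the 6 IgG libraries. The authors deposited whole-number counts per peak and library for 1 peak set on mm10, per the file headers, with a gene and a distance from its start site for each peak. The tools named, per the submitters' processing notes, are DESeq2 1.38.1, MACS2, SAMtools and Novoalign 4.02.02, with no role given. Not given in the sources used here are the libraries that peaks were called on and how reads were counted. If peaks were called on few libraries, regions without a peak in them would have no row.

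The 6 pairs of technical duplicates in batch 2 agreed within sampling noise (0.88 to 0.997 chi-square per df, against 1.05 to 2.53 between animals) and were summed, so each animal was 1 sample. Counts were summed per gene name, filtered with filterByExpr (16307 peaks and 11324 genes left), scaled with TMM and tested with edgeR 4.0.16 (R 4.3.3), batch as a term, with Benjamini-Hochberg adjustment over the whole table. The steps were tested on simulated data. The SE is the size of the log2 fold change divided by the square root of F.

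The members, the 10 lists and the rules were chosen with earlier results of these data known. Values in every animal are given for members called or with a called peak, members with a known role in the eye, and the 2 Fox and 2 Sox genes with most mark in controls. The values of 1 listed gene are not reported here. RefSeq positions and promoters are those of GRCm38.p6, the assembly of mm10. Alternatives were other scalings, DESeq2 1.42.0, filters, terms, batches, duplicates, gene assignment and leaving out each animal. Figures used matplotlib 3.10.9 (Python 3.11.15). Intervals and p-values cover the spread between these animals.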

Additional observations from a re-analysis of the deposited data

Results flagged for a closer look

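At Foxa3, cKO 1 held 122 CPM while the other 4 cKO animals held 137 to 143 CPM. Its gap to the nearest animal was 0.714 of the range of the group, above the critical value of 0.71 for 5 animals. It was 1 of 56 groups looked at, and chance alone flags about 1 in 20.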

How the results depend on the processing

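That no member gene was called held under the other scalings, DESeq2, an unfiltered table and a fit lacking the batch term. It also held in batch 2 alone, in either duplicate alone, and with sex as a term. The same was true with autosomal peaks, start-site peaks, RefSeq gene bodies and a threshold of 0.1. Batch 1 alone and a threshold of 0.01 had no calls either. However, in batch 1 edgeR called no gene at all, and a stricter threshold on the same fit cannot add calls. When each animal was left out in turn, the Fox genes called lower ranged from 0 to 1 (Foxb2 without control replicate 5) and those called higher from 0 to 1 (Foxj1 without cKO replicate 3), and the Sox genes called stayed at 0. Member peaks called ranged from 0 to 1 lower and from 0 to 1 higher. The 1 lower peak, upstream of Foxb2, became 0 with the total count, DESeq2, no batch term (edgeR adjusted p = 0.183), batch 1 alone (0.471), batch 2 alone (0.0965), the first duplicate alone (0.23) and a threshold of 0.01; the cause was not tested.

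With the replicate number as a block, edgeR called 0 member genes and 1 member peak lower (adjusted p = 0.0277), with family medians of -0.048 for Fox and -0.037 for Sox, and of the peaks near members only that beside Sox10 lost its call (adjusted p = 0.0712). The deviations of animals with the same number had correlations of -0.47, -0.47, 0.13, 0.028 and 0.053, and the numbers were not treated as pairs. With 2 animals a group in batch 1, deviations from the group mean mirror each other, so both values of -0.47 are the same value. In batch 2 the deviations of 3 animals a group sum to 0, so the correlations are not independent and cannot settle whether the numbers are pairs. Over all genes, 249 lower and 18 higher were called without the batch term and 0 of either in batch 1 alone, which has 2 animals a group. Leaving out control replicate 2, 3 or 4 or cKO replicate 2, 4 or 5 left 89 to 112 genes called higher. The members depended on single controls. Without control replicate 5, 24 of 27 had a negative sign and 8 an unadjusted p under 0.05 in edgeR, against 2 in the fit used. The medians were then -0.073 for Fox and -0.084 for Sox. Without control replicate 1, 14 were negative and 13 positive, with medians of -0.0024 for Fox and -0.0063 for Sox. Of the called peaks near members, those beside Foxb1 and Foxd3 and the nearer one beside Sox1 kept their call in 17 or 18 of 19 settings, and none of the 9 was called in batch 1 alone. Sox4, Sox8, Foxj1 and Foxn1 rest on 60 to 285 reads, so changes there were measured with wide intervals.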
